A study of Homo sapiens with 8 samples.

Results

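The genes described here are 10 genes of lung lineage and of simple epithelium, measured in NCI-H1975 cells: the transcription factors NKX2-1, FOXA1 and FOXA2, the contact proteins CDH1, EPCAM and CLDN4, and the keratins KRT7, KRT8, KRT18 and KRT19. For each gene the probe set that maps to its symbol alone and has the highest mean over all arrays was taken, and its other probe sets served as a check. All 10 were measured, out of 19775 genes with such a probe set. No filter on low signal was applied, so all 10 entered every test.

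The established line NCI-H1975 comes from a human adenocarcinoma of the lung and grows under a mutant EGFR receptor. Total RNA was hybridised to 8 Affymetrix 3′ expression arrays, 1 for each condition, after 24 hours of treatment. Without L-histidinol, cells received osimertinib at 10 nM, alpelisib at 1 µM, the drugs together or DMSO vehicle, and the same 4 treatments were repeated in 2 mM L-histidinol. Mutant EGFR is blocked covalently by osimertinib, the alpha isoform of PI3K is the target of alpelisib, and L-histidinol is a histidine analog that blocks the charging of histidine to its tRNA and mimics lack of that amino acid. All cells were in RPMI1640 medium with serum and kanamycin. The model is a single cell line, and nothing in the labels says that the arrays come from separate cultures, so p-values measure only the spread between these arrays.

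Simple epithelium is held together by adherens junctions, in which E-cadherin binds its like on the next cell and is anchored to actin through catenins, and by tight junctions, whose claudins seal the space between cells. Its keratin filaments are obligate pairs of a type I and a type II keratin, with KRT8 and KRT18 the basic pair of all simple epithelia and KRT7 and KRT19 the partners added in ducts and airways. NKX2-1, also called TTF-1, is the homeobox factor that specifies lung and thyroid and drives surfactant genes, and it marks most lung adenocarcinomas. FOXA1 and FOXA2 are forkhead factors that open chromatin in endoderm and cooperate with NKX2-1 at lung genes.

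Medians of intensity lay between 21.8 and 22.4 on the 8 arrays, and the arrays correlated at r = 0.979 to 0.996 across all probe sets other than controls. The additive fit was made with limma over all genes, with L-histidinol compared over 4 pairs of arrays and each drug treatment over 2 arrays against 2. The spread it uses is the departure of the arrays from additivity, which holds true interactions as well as noise. Values below are log2 intensities or log2 differences ± SE, a difference of 1 is 2-fold, and a gene was called at an adjusted p below 0.05 over all 19775 genes. Signals of different probe sets are not on a common scale. Levels called bright or dim, and the summed intensity of markers, are therefore only rough guides. Known readouts of the treatments moved. DUSP6, a feedback phosphatase of the MAPK pathway, fell by 3.99 with osimertinib, and IRS2, an insulin pathway adaptor, rose by 0.90 with alpelisib. ASNS, asparagine synthetase of the amino acid response, rose by 2.02 with L-histidinol. IRS2 and DUSP6 also rose with L-histidinol, by 0.87 and 0.48, both called, so they are not particular to the drugs.

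Epithelial markers were bright on every array. KRT7 lay between 12.77 and 13.28, EPCAM between 12.00 and 12.24 and KRT18 between 11.96 and 12.82. The highest value of any probe set with a single gene symbol was 13.87. Some genes of the mesenchymal list were bright too. Means were 12.82 for the intermediate filament gene VIM, 13.42 for TGFBI and 10.98 for FN1. They were 10.08 for SPARC, 10.00 for AXL and 9.64 for SNAI2. Of the 13 genes of that list 9 had a mean of at least 5. CDH2, TWIST1, TWIST2 and ZEB2 were dim, with means of 3.49, 2.11, 3.25 and 2.78. The lung marker NKX2-1 lay between 7.00 and 9.64. NAPSA, an aspartic protease of alveolar cells, and the surfactant protein gene SFTPB had means of 5.60 and 6.14. FOXA1 was dim, with a mean of 3.84 below the array medians of 4.44 to 4.48. Of 12 markers of fibroblasts, blood and endothelium 11 were measured, and 4 had a mean of at least 5. Those 4 were COL1A1, HBB, PECAM1 and DCN. The collagen COL1A1 had a mean of 9.14, HBB, of blood, 5.79 and PECAM1, of endothelium, 5.18. DCN, of fibroblasts, was just above 5. PTPRC, a marker of blood cells, and COL3A1 and LUM, of fibroblasts, had means of 2.82, 2.83 and 2.17.

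**Figure D1:**
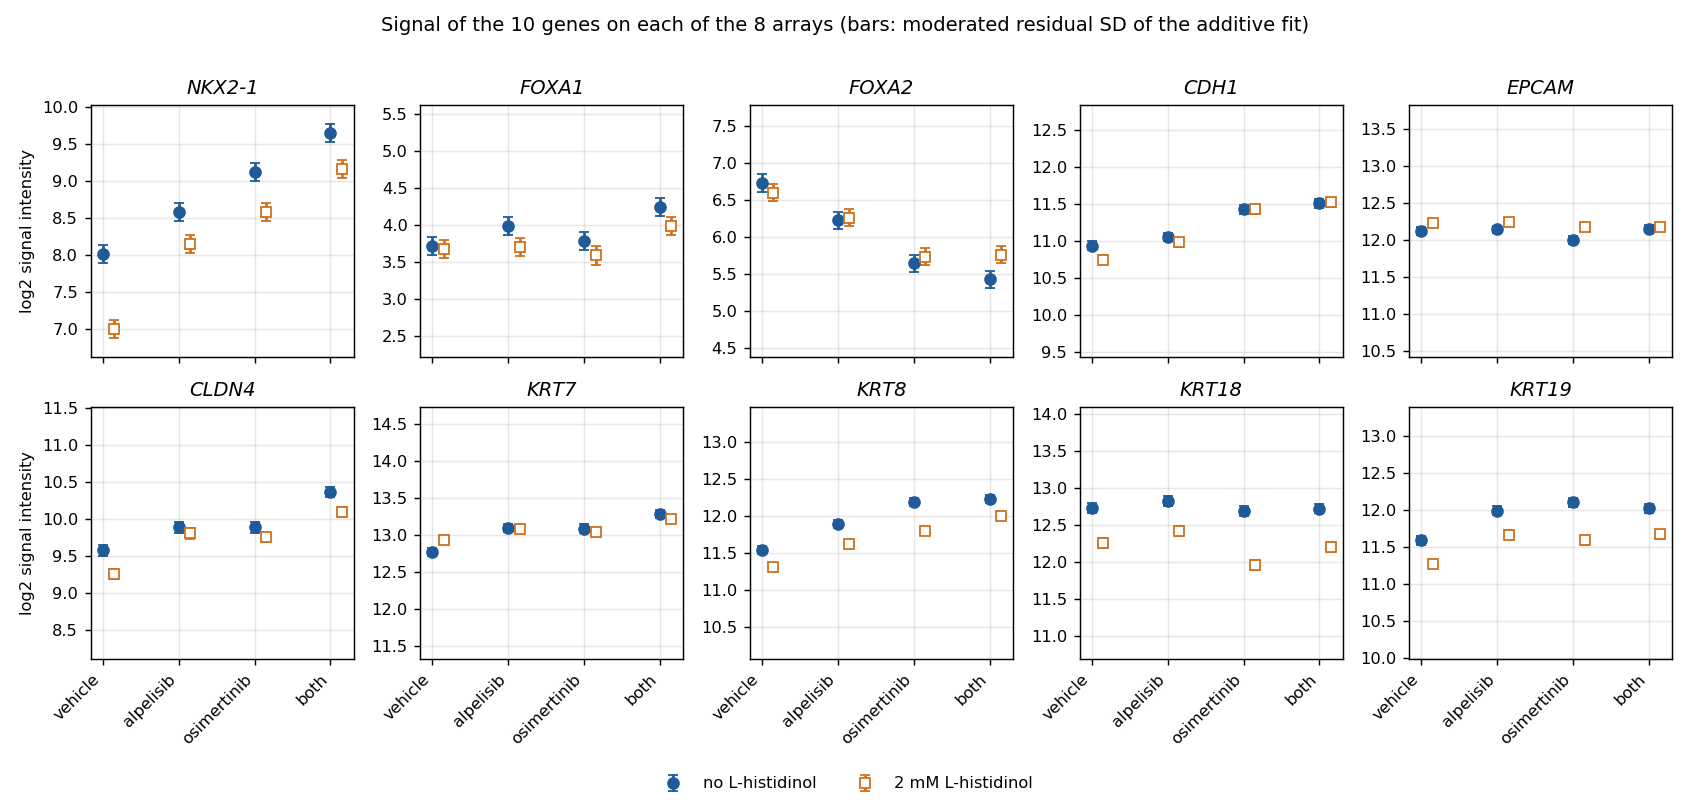
Log2 signal intensity of each of the 10 genes (vertical axes, all spanning the same range) on the 8 arrays, by drug treatment (horizontal axis), without L-histidinol (blue circles) and with 2 mM L-histidinol (orange open squares, drawn slightly to the right); bars are the moderated residual SD of the additive fit. NKX2-1 spans 7.00 to 9.64 and rises from vehicle through alpelisib and osimertinib to both drugs, FOXA2 runs the other way from 6.73 to 5.43, and EPCAM stays between 12.00 and 12.24.

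NKX2-1 had the widest range of the 10 genes, 2.65 log2 units. Without L-histidinol its signal was 8.01 in vehicle, 8.57 with alpelisib, 9.12 with osimertinib and 9.64 with both drugs. With L-histidinol the 4 values were 7.00, 8.14, 8.58 and 9.16 in the same order. The drug order was the same in both series of arrays, and each array with L-histidinol was below its partner without. In the order of the 8 levels, 4 gaps were beyond the spread of a difference between 2 arrays (0.17). Vehicle and L-histidinol plus alpelisib, alpelisib and L-histidinol plus osimertinib, and osimertinib and L-histidinol plus both drugs were neighbours that did not differ beyond it.

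The fitted rise of NKX2-1 was 1.35 ± 0.12 with osimertinib (2.55-fold, adjusted p = 1.3e-05), 0.86 ± 0.12 with alpelisib (1.81-fold, adjusted p = 0.0016) and 1.90 ± 0.12 with both (3.74-fold, adjusted p = 3.3e-07). The arrays cannot tell more cells with the transcript from more transcript in each cell, here or below. The fainter probe set of NKX2-1 followed it over the 8 arrays (r = 0.943), with fitted differences of 0.64, 0.25 and 1.07. Of these, that for alpelisib was not called (adjusted p = 0.21). Both probe sets of NKX2-1 have names that mark possible cross-hybridization. The alpelisib call was lost without the array of L-histidinol plus alpelisib, where the rise was 0.73.

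RefSeq gives NKX2-1 a pair of transcription starts, and their promoters are shown because the gene moved most and because the downstream start is shared with a neighbour. The first window is chr14:36520233-36520482 and the second chr14:36519557-36519806, both on the minus strand of GRCh38.p14, each 250 bases before the start and written 5′ to 3′. Capitals mark matches on either strand to the GC box GGGCGG, which occurs in 42.6% of 35116 RefSeq promoters of this length, and to the forkhead motif TGTTTAC, which occurs in 2.98%.
NKX2-1 upstream start: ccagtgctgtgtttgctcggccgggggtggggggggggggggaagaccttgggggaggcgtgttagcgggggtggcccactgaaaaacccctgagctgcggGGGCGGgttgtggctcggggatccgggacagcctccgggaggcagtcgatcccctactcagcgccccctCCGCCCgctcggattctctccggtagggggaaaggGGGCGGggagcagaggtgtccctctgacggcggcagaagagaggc
NKX2-1 downstream start: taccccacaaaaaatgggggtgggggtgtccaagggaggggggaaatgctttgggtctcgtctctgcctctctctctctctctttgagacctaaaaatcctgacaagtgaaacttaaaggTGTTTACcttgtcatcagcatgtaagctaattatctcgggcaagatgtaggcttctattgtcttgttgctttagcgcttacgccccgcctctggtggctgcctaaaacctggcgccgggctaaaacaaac
The upstream window holds 3 GC boxes, 18 CpG sites and 70.8% G or C, against a median of 58.0% over all promoters. The downstream window holds none of them but 1 forkhead match, 130 to 124 bases before the start, 7 CpG sites and 49.6% G or C. E-box CACCTG, AP-1 TGANTCA and TATAAA, present in 17.5%, 6.57% and 10.7% of promoters, matched neither window. A match is a description of the letters and not of a bound site.

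The downstream window is also the promoter of 1 of 2 starts that RefSeq lists for SFTA3, a long noncoding RNA gene whose span overlaps NKX2-1 on the same strand of chromosome 14. SFTA3 was in the list of lung lineage genes. Its signal was 7.02 in vehicle, 7.63 with alpelisib, 8.81 with osimertinib and 9.11 with both, and 5.76, 6.95, 8.10 and 8.59 with L-histidinol. The order of the drugs was that of NKX2-1, and again every L-histidinol array was below its partner. SFTA3 rose by 2.07 ± 0.14 with osimertinib, 0.90 ± 0.14 with alpelisib and 2.46 ± 0.14 with both (adjusted p = 2.2e-06, 0.003 and 1.9e-07). Whether either probe set also detects transcripts of the other gene was not tested. The protein-coding neighbours MBIP, NKX2-8 and PAX9 were not called with either drug, both drugs or L-histidinol, with differences from vehicle between -0.12 and 0.15 in the drug comparisons.

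FOXA2 went the opposite way to NKX2-1. Without L-histidinol it lay at 6.73 in vehicle, 6.22 with alpelisib, 5.64 with osimertinib and 5.43 with both, and with L-histidinol at 6.60, 6.26, 5.73 and 5.76. The 4 arrays with osimertinib, alone or with alpelisib, were the lowest and did not overlap the other 4. How many of all genes separate the arrays in this way was not counted. FOXA2 fell by 0.98 on the log2 scale with osimertinib (SE 0.12, adjusted p = 9.6e-05), 1.97-fold lower, and by 1.07 with both drugs (SE 0.12, adjusted p = 1.8e-05), 2.10-fold lower. With alpelisib it fell by 0.42 (adjusted p = 0.042). That call was lost without any of the vehicle, osimertinib, alpelisib, L-histidinol plus osimertinib or L-histidinol plus alpelisib arrays (differences of -0.45 to -0.28). Of its other probe sets, the one with a mean of 5.54 gave -1.17, -0.39 and -1.12 for osimertinib, alpelisib and both (adjusted p = 0.064 for alpelisib), and the dim one with a mean of 3.38 gave 0.13, 0.11 and 0.14.

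FOXA1 was near the floor of the array, between 3.59 and 4.25. Its highest values were 4.25 with both drugs and 3.98 with both drugs in L-histidinol, level with 3.98 with alpelisib alone. It rose by 0.42 ± 0.12 with both drugs (adjusted p = 0.016) and was not called with osimertinib (-0.01 ± 0.12) or alpelisib (0.15 ± 0.12). The call was lost without the vehicle array (0.31, adjusted p = 0.15) or the array of both drugs (0.37, adjusted p = 0.12), and the second probe set, still dimmer at 1.65, gave -0.12. With the mean of its probe sets it was 0.15 (adjusted p = 0.34).

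**Figure D2:**
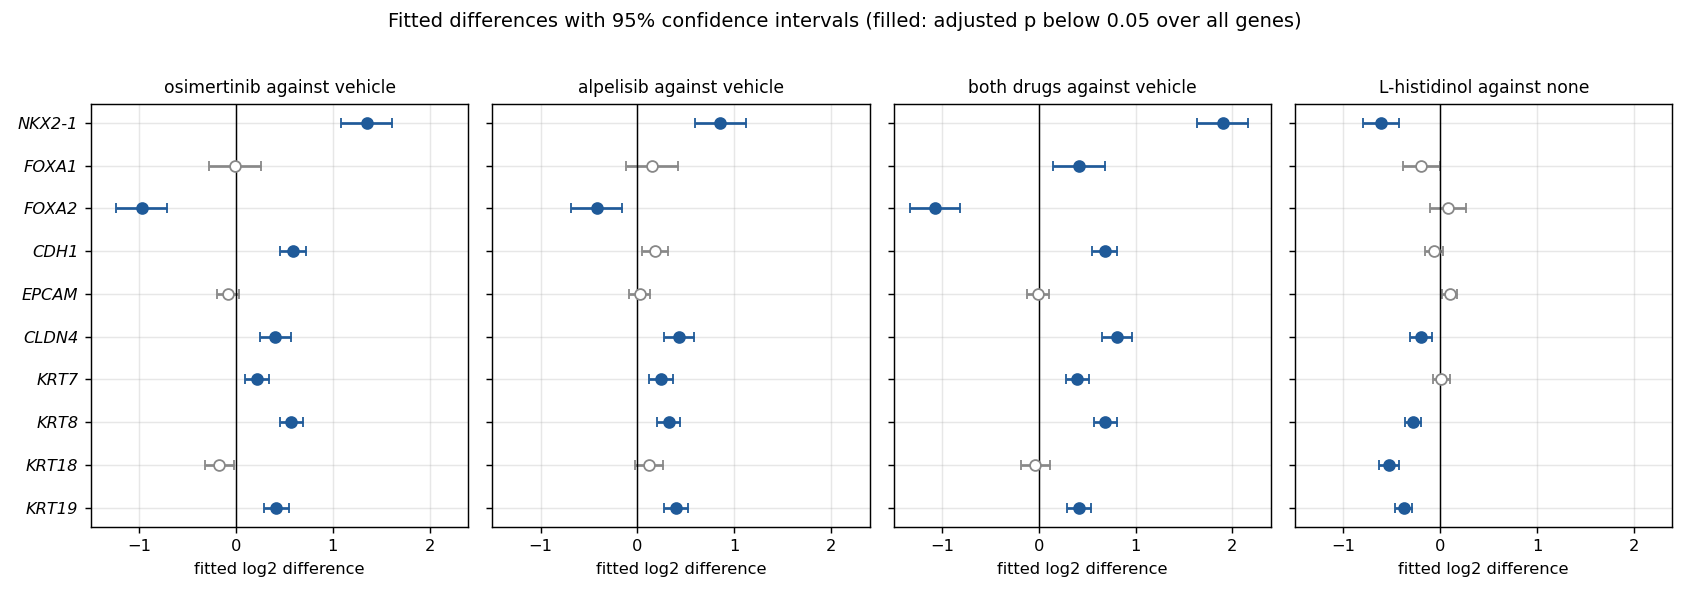
Fitted log2 differences of the 10 genes (horizontal axes) in 4 comparisons, with 95% confidence intervals; filled blue points passed an adjusted p of 0.05 over all genes and open grey points did not. NKX2-1 reaches 1.90 with both drugs and -0.62 with L-histidinol, FOXA2 is the only called gene below 0 in the drug panels, and EPCAM and KRT18 are open in all 3 drug panels.

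Against vehicle, osimertinib raised 6 of the 10 genes and lowered 1, where 30.4% of all genes were called (16.4% higher and 14% lower). Alpelisib raised 5 and lowered 1, beside 11.5% of all genes called (7.08% and 4.38%). With both drugs 7 rose and 1 fell, beside 40.6% (21.4% and 19.2%). With array medians subtracted the split was 14.7% higher and 15% lower for osimertinib, 5.94% and 5.51% for alpelisib, and 19.3% and 21.4% for both. The median difference of the 10 genes was 0.31, 0.21 and 0.42, and that of all genes 0.01, -0.00 and -0.00. The 3 comparisons share their vehicle arrays, so their counts are not independent of each other. Without the array of L-histidinol plus alpelisib 0 of the 10 genes were called for alpelisib, when 175 genes were called in all, and without the alpelisib array 3 of 10 (NKX2-1, CLDN4 and KRT19), when 600 were. At an unadjusted p below 0.05, 7 of the 10 and 24.6% of all genes passed for alpelisib on the full set of arrays.

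E-cadherin, CDH1, was highest wherever osimertinib was given. It lay at 10.94 in vehicle, 11.06 with alpelisib, 11.43 with osimertinib and 11.51 with both, and at 10.75, 10.98, 11.43 and 11.53 with L-histidinol. The 4 arrays with osimertinib did not overlap the other 4, and among the osimertinib arrays no gap was beyond the spread. The share of all genes with such a separation was not counted. It rose by 0.59 ± 0.06 with osimertinib (1.51-fold, adjusted p = 3.2e-05) and 0.68 ± 0.06 with both drugs (1.60-fold, adjusted p = 3.6e-06), while the value for alpelisib was 0.18 ± 0.06 (adjusted p = 0.086, 0.039 without the vehicle array). Its fainter probe set gave 0.58, 0.73 and 0.20. Both probe sets of CDH1 have names that mark possible cross-hybridization.

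P-cadherin, CDH3, lies next to CDH1 on chromosome 16 and encodes the related cadherin of basal and placental epithelium. It rose by 0.71 ± 0.05 with osimertinib, 0.40 ± 0.05 with alpelisib and 0.93 ± 0.05 with both, all called. HAS3, a hyaluronan synthase a further gene away on the other side, fell by 1.66 with osimertinib and by 2.05 with both. Neighbours of the 10 genes were looked at after their values had been seen and are given as a description.

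CLDN4, a claudin of tight junctions, lay at 9.58 in vehicle, 9.89 with alpelisib, 9.89 with osimertinib and 10.37 with both drugs, and at 9.26, 9.81, 9.76 and 10.10 with L-histidinol. The single drugs gave like values, and the arrays of both drugs were the highest in each series. It rose by 0.41 ± 0.07 with osimertinib, 0.43 ± 0.07 with alpelisib and 0.81 ± 0.07 with both (adjusted p = 0.0012, 0.0042 and 3.3e-06), and the departure of the last from the sum of the others was -0.03 ± 0.10. The alpelisib call was lost without the array of L-histidinol plus alpelisib (0.35, adjusted p = 0.15). A dim second probe set, mean 4.33, stayed between 4.24 and 4.41, and none of these 3 differences was called from it (0.11, 0.06 and 0.06, adjusted p = 0.61, 0.87 and 0.79). With both probe sets averaged the alpelisib difference was 0.24 (adjusted p = 0.067). CLDN3, the claudin next to CLDN4 on chromosome 7, rose by 0.40 ± 0.10 with osimertinib and 0.97 ± 0.10 with both, and its value for alpelisib was 0.31 ± 0.10 (adjusted p = 0.086).

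The CLDN4 promoter, chr7:73830746-73830995 on the plus strand of GRCh38.p14, is shown as that of the contact protein that was called with each drug. Capitals mark AP-1 TGANTCA, found in 6.57% of promoters, and the GC box on either strand.
CLDN4: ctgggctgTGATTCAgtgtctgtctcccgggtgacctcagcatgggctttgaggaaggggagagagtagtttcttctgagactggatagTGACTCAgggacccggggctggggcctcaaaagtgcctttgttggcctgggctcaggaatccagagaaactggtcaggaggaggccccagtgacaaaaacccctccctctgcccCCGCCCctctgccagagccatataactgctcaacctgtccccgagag
The AP-1 matches lie 242 to 236 and 161 to 155 bases before the start. Nothing in these data bears on binding there. The table of promoters held 4 of the 10 genes, NKX2-1, FOXA1, CLDN4 and KRT8. The FOXA1 window held 1 E-box and 2 GC boxes. The KRT8 window, which lies before an upstream RefSeq start of that gene, held 0 matches to any of the 5 motifs. Other starts of KRT8 were not searched.

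EPCAM, a surface glycoprotein of epithelial contacts, did not pass the test in any comparison of the 8 arrays over all genes. It lay at 12.12 in vehicle, 12.14 with alpelisib, 12.00 with osimertinib and 12.15 with both, and at 12.22, 12.24, 12.18 and 12.17 with L-histidinol. All 8 values were within 0.24, and 1 gap in their order, that above the osimertinib array, was beyond the spread. The 95% intervals ran from -0.20 to 0.03 for osimertinib, -0.09 to 0.13 for alpelisib and -0.12 to 0.10 for both drugs.

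The 4 keratins did not move as a block. KRT8, type II, lay at 11.54 in vehicle, 11.88 with alpelisib, 12.19 with osimertinib and 12.22 with both, and at 11.30, 11.61, 11.80 and 12.00 with L-histidinol. It rose by 0.57 ± 0.05 with osimertinib (1.48-fold), 0.32 ± 0.05 with alpelisib (1.25-fold) and 0.69 ± 0.05 with both (1.61-fold), at adjusted p = 2e-05, 0.0042 and 1.5e-06. The alpelisib call was lost without the alpelisib array (0.33) or that of L-histidinol plus alpelisib (0.32), fits that leave 1 array of alpelisib alone or with L-histidinol.

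KRT18, the type I partner of KRT8, did not follow it with the drugs. It lay at 12.73 in vehicle, 12.82 with alpelisib, 12.68 with osimertinib and 12.72 with both, values whose gaps were within the spread. With L-histidinol it lay at 12.26, 12.42, 11.96 and 12.20, so that the arrays with and without L-histidinol did not overlap. How common such a separation is among all genes was not counted. Its fitted differences were -0.17 ± 0.07 for osimertinib (adjusted p = 0.074), 0.12 ± 0.07 for alpelisib and -0.04 ± 0.07 for both. Without the osimertinib array that for osimertinib was -0.30 and passed (adjusted p = 0.011). The difference between KRT8 and KRT18 was not itself tested, and their signals correlated at r = 0.304 over the 8 arrays, against r = 0.969 for KRT8 with NKX2-1. In RefSeq the spans of KRT8 and KRT18 overlap on chromosome 12. Each had a single probe set, of a kind whose name marks possible cross-hybridization.

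KRT19, type I, lay at 11.60 in vehicle, 12.00 with alpelisib, 12.11 with osimertinib and 12.03 with both, and at 11.28, 11.67, 11.60 and 11.68 with L-histidinol. Within each series the 3 drug treatments were above vehicle. It rose by 0.41 ± 0.06 with osimertinib, 0.40 ± 0.06 with alpelisib and 0.41 ± 0.06 with both (adjusted p = 0.00024, 0.002 and 0.00011). The alpelisib call was lost without the array of L-histidinol plus alpelisib, where the difference was 0.36. The dim second probe set, mean 3.64, ran the other way (-0.30, -0.43 and -0.19), none called (adjusted p = 0.30, 0.19 and 0.49). With the mean of both probe sets no call was left (0.06, -0.015 and 0.11, adjusted p = 0.77, 0.96 and 0.49).

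KRT7, type II, lay at 12.77 in vehicle, 13.10 with alpelisib, 13.09 with osimertinib and 13.28 with both, and at 12.93, 13.08, 13.04 and 13.21 with L-histidinol. Its rise was 0.22 ± 0.06 with osimertinib, 0.24 ± 0.06 with alpelisib and 0.40 ± 0.06 with both drugs (adjusted p = 0.012, 0.019 and 0.00012). The osimertinib call was lost without the vehicle array (0.11, adjusted p = 0.16) or the osimertinib array (0.18, adjusted p = 0.14), and the alpelisib call without the vehicle (0.14, adjusted p = 0.18), alpelisib (0.23, adjusted p = 0.18) or L-histidinol plus alpelisib array (0.25, adjusted p = 0.20). Of the other 3 probe sets, with means of 6.59, 5.13 and 2.90, differences for both drugs were 0.13, 0.21 and 0.30. The first of these, which is not marked for cross-hybridization, gave -0.015 for osimertinib and 0.015 for alpelisib and was not called in any of the 3 comparisons (adjusted p = 0.95, 0.96 and 0.34). With all probe sets averaged the difference for both drugs was called (0.26, adjusted p = 0.019) and those for osimertinib and alpelisib were not (0.13 and 0.12, adjusted p = 0.23 and 0.41). KRT80, a keratin gene next to KRT7, rose by 0.78 ± 0.12, 0.50 ± 0.12 and 1.26 ± 0.12. KRT15, a keratin of basal cells next to KRT19 on chromosome 17, fell by 0.94 with osimertinib and by 0.78 with both.

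Adding alpelisib to osimertinib raised 3 of the 10 genes and lowered 0, beside 13.4% of all genes called (5.96% and 7.41%). NKX2-1 rose by 0.55 ± 0.12 (adjusted p = 0.012), FOXA1 by 0.43 ± 0.12 (adjusted p = 0.041) and CLDN4 by 0.40 ± 0.07 (adjusted p = 0.0045). With probe sets averaged FOXA1 (0.29, adjusted p = 0.14) and CLDN4 (0.18, adjusted p = 0.15) were not called. With no trend in the prior NKX2-1 and CLDN4 were not (adjusted p = 0.067 and 0.052), and with all 2-way terms FOXA1 was not (adjusted p = 0.062). Without the osimertinib array 0 were called (719 genes in all), and without that of L-histidinol plus osimertinib 1 was (508 in all). NKX2-1 was also lost without the array of L-histidinol plus both drugs (0.46, adjusted p = 0.054), and FOXA1 without any of 6 arrays, with adjusted p of 0.073 to 0.24. Adding osimertinib to alpelisib raised 4 and lowered 1, beside 29% (14.6% and 14.4%): NKX2-1 by 1.05 ± 0.12, CDH1 by 0.50 ± 0.06, CLDN4 by 0.38 ± 0.07, KRT8 by 0.36 ± 0.05 and FOXA2 by -0.65 ± 0.12. The CLDN4 call was lost without the alpelisib array (0.30) and with its probe sets averaged (0.19, adjusted p = 0.072). KRT19 differed by 0.00 ± 0.06 and 0.02 ± 0.06 in these comparisons, with 95% intervals of -0.13 to 0.13 and -0.11 to 0.14.

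The departure of both drugs from the sum of each alone was called by limma for 0 of the 10 genes and for 0.0303% of all genes, 6 in number. At an unadjusted p below 0.05, 2 of the 10 and 8.84% of all genes passed. Those 2 were KRT19, at -0.40 ± 0.08 (adjusted p = 0.16, 95% interval -0.58 to -0.22), and KRT8, at -0.21 ± 0.08 (adjusted p = 0.46). FOXA2 had 0.33 ± 0.17 (adjusted p = 0.60), NKX2-1 -0.30 ± 0.17 (adjusted p = 0.63) and CLDN4 -0.03 ± 0.10 (adjusted p = 0.97).

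L-histidinol lowered 5 of the 10 genes and raised 0, beside 20.6% of all genes called (9.17% lower and 11.4% higher). Their median difference was -0.20, and that of all genes -0.01. NKX2-1 fell by 0.62 (SE 0.08, 1.53-fold lower, adjusted p = 0.00057), with differences of -1.01 in vehicle, -0.54 in osimertinib, -0.43 in alpelisib and -0.48 in both drugs. The vehicle pair was apart from the other 3. SFTA3 fell by 0.79 (SE 0.10, adjusted p = 0.00035).

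The keratins KRT18, KRT19 and KRT8 fell in each of the 4 pairs. KRT18 fell by 0.53 (SE 0.05, 1.44-fold lower, adjusted p = 5e-05), with pairs between -0.72 and -0.40. KRT19 fell by 0.38 (SE 0.04, adjusted p = 0.00015), with pairs between -0.51 and -0.32, but had -0.16 with the mean of its probe sets (adjusted p = 0.20) and 0.049 with the dim one (adjusted p = 0.87). KRT8 fell by 0.28 (SE 0.04, adjusted p = 0.00054), with pairs between -0.39 and -0.23. KRT7 had 0.01 ± 0.04, with a 95% interval of -0.08 to 0.10. Its pairs were of unlike sign, 0.16 in vehicle and -0.04, -0.01 and -0.07 in osimertinib, alpelisib and both drugs. In KRT18, KRT19 and KRT8 the osimertinib pair had the largest difference of the 4.

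CLDN4 fell by 0.20 (SE 0.05, adjusted p = 0.016), lower in 4 of 4 pairs, but the call was lost without any of the vehicle, osimertinib, L-histidinol or L-histidinol plus osimertinib arrays (adjusted p = 0.0505 to 0.0521), with its probe sets averaged (-0.09, adjusted p = 0.24) and with the dim one (0.018, adjusted p = 0.93). CDH1 had -0.06 ± 0.04 (adjusted p = 0.37), while its fainter probe set had -0.30 and was called (adjusted p = 0.013). EPCAM had 0.10 ± 0.04 (adjusted p = 0.077), higher in 4 of 4 pairs, and passed without either array of both drugs (0.13, adjusted p = 0.032) and among genes with a mean of at least 5 (adjusted p = 0.041). FOXA1 had -0.19 ± 0.09 (adjusted p = 0.15), lower in 4 of 4 pairs, and FOXA2 0.08 ± 0.08 (adjusted p = 0.57). The share of all genes that went 1 way in all 4 pairs was not counted.

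A measure of RNA quality moved with L-histidinol. The 3′ to 5′ signal ratio of the ACTB control probe sets was 1.04 to 1.07 on the arrays without and 1.10 to 1.15 on those with L-histidinol, while that of GAPDH was 0.978 to 1.01 and 0.966 to 0.982. Its part in the differences above was not tested. The interactions of L-histidinol with osimertinib and with alpelisib were called by limma for 0 of the 10 genes and for 0 of all genes. At an unadjusted p below 0.05, 1 of the 10 and 8.36% of all genes passed for osimertinib, and 1 and 5.05% for alpelisib. The first was KRT18 (-0.19 ± 0.07, adjusted p = 0.55) and the second NKX2-1 (0.32 ± 0.14, adjusted p = 0.95). With the prior variance estimated by the fit of all 2-way terms itself, which has 1 residual degree of freedom, both passed (adjusted p = 0.039 and 0.047).

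**Figure D3:**
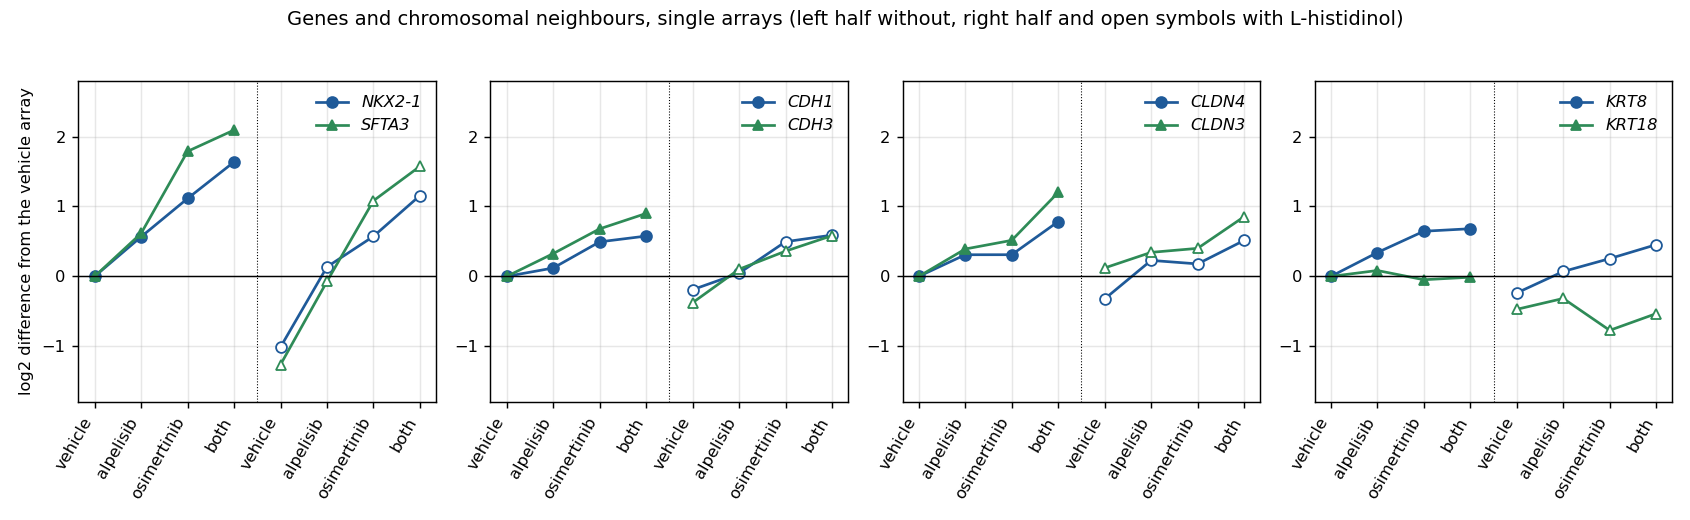
Log2 difference of each array from the vehicle array (vertical axes) for NKX2-1, CDH1, CLDN4 and KRT8 (blue circles) and a chromosomal neighbour of each (green triangles), by treatment; the left 4 positions are without and the right 4, with open symbols, are with 2 mM L-histidinol. SFTA3, CDH3 and CLDN3 trace their neighbours at r = 0.984, 0.921 and 0.912 over the 8 arrays, and KRT18 does not trace KRT8 (r = 0.304).

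The wider lung list held partners and alveolar targets, 28 of them measured. Counts of this and the following lists stand beside 30.4% of all genes called with osimertinib, 11.5% with alpelisib, 40.6% with both and 20.6% with L-histidinol. With osimertinib 9 rose and 3 fell, with alpelisib 3 rose and 0 fell, a share near that of all genes, and with both drugs 10 rose and 3 fell. The alpelisib count lay between 2 and 5 over the arrays left out in turn. Beside SFTA3, the largest rises with osimertinib were in MUC1, a surface mucin, with 1.74 ± 0.07, and CTSH, the cathepsin that processes surfactant protein B, with 1.67 ± 0.08. DUSP4, a MAPK phosphatase of the list, fell by 1.73. HOPX, a factor of alveolar type I cells, and ID2, an inhibitor of basic helix-loop-helix factors, reached 2.12 ± 0.24 and 1.89 ± 0.14 with both drugs. SOX9, a factor of the distal lung bud, fell by 1.06 and GATA6, an endoderm factor, by 0.65 with both drugs. NAPSA rose by 0.44 ± 0.11 with osimertinib and 0.65 ± 0.11 with both, and SFTPB by 0.35 ± 0.12 with osimertinib. With L-histidinol 3 rose and 6 fell, among them LAMP3, a lysosomal protein of alveolar type II cells (1.60 ± 0.18), GATA6 (1.31 ± 0.08) and SOX2, a factor of airway epithelium (-0.75 ± 0.09). Of 12 measured genes of gut and gastric identity, 0 were called by limma with either drug or L-histidinol (1, 0 and 0 at an unadjusted p below 0.05), and 1, REG4, rose with both (0.44 ± 0.16). All 12 except 2 had a mean below 5.

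Most of the junction genes called with the drugs were higher. Of 13 adherens junction genes, 8 rose and 0 fell with osimertinib, 4 and 0 with alpelisib, and 7 and 1 with both, with list medians of 0.30, 0.22 and 0.41. JUP, plakoglobin, rose by 1.28 ± 0.07, 1.03 ± 0.07 and 1.64 ± 0.07, and NECTIN4, a nectin of epithelial contacts, by 1.04 ± 0.10, 0.65 ± 0.10 and 1.29 ± 0.10. CTNNB1, beta-catenin, fell by 0.26 with both. Of 14 tight junction genes, 8, 7 and 10 rose in these comparisons and 0 fell, with medians of 0.24, 0.24 and 0.45. CLDN1 rose by 0.72 ± 0.16, 0.59 ± 0.16 and 1.93 ± 0.16, and CGNL1, paracingulin, by 0.79 ± 0.08, 0.72 ± 0.08 and 1.41 ± 0.08. The osimertinib counts were 5 and 4 without the osimertinib array, and 5 for the adherens list without that of L-histidinol plus osimertinib. The alpelisib counts were 1 and 1 without the array of L-histidinol plus alpelisib, and the tight junction count lay between 1 and 8 over the 8 arrays left out. With L-histidinol 5 adherens genes fell and 0 rose, and 4 tight junction genes fell and 2 rose. Of the tight junction genes 2 fell without the osimertinib or the L-histidinol plus osimertinib array, and at most 1 rose without any single array.

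Desmosomes and their linkers anchor keratin filaments to the membrane. Of 13 genes 6 rose and 1 fell with osimertinib, 2 and 0 with alpelisib, near the 11.5% of all genes, and 8 and 0 with both, where PPL, periplakin, rose by 2.12 ± 0.09, DSC2 by 0.92 ± 0.09 and PERP by 0.88 ± 0.05. Without the array of L-histidinol plus osimertinib 3 rose with osimertinib, and without that of L-histidinol plus alpelisib 1 with alpelisib. PKP2, plakophilin, fell by 0.78 with osimertinib. With L-histidinol 2 fell, EVPL and PKP3, and 0 rose, a share below the 20.6% of all genes. Without any array other than those of vehicle and of L-histidinol alone 1 fell, and 2 rose without either array of both drugs. Of 11 other keratins, 3 of which had a mean of at least 5, 1 rose and 1 fell with osimertinib, 1 rose with alpelisib, 2 rose and 2 fell with both, and 1 rose with L-histidinol, a call lost without any single array.

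Regulators of epithelial state numbered 19. With osimertinib 10 rose and 2 fell, with alpelisib 7 rose and 0 fell, and with both 15 rose and 2 fell. ELF3, an epithelial ETS factor, rose by 1.56 ± 0.10, 0.79 ± 0.10 and 1.93 ± 0.10, and PRSS8, a membrane-anchored protease, by 1.14 ± 0.14, 0.57 ± 0.14 and 1.66 ± 0.14. KLF4 fell by 0.70 with osimertinib and by 0.43 with both. Without the osimertinib array 6 rose with osimertinib, and without the array of L-histidinol plus alpelisib 1 rose with alpelisib, without the vehicle array 2 and without the alpelisib array 3. L-histidinol lowered 7 and raised 1, KLF4 (1.01 ± 0.06), with 4 lowered without the osimertinib or the L-histidinol plus osimertinib array and 2 raised without either array of both drugs. ST14, the protease matriptase, fell by 0.49 and ELF3 by 0.39.

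**Figure D4:**
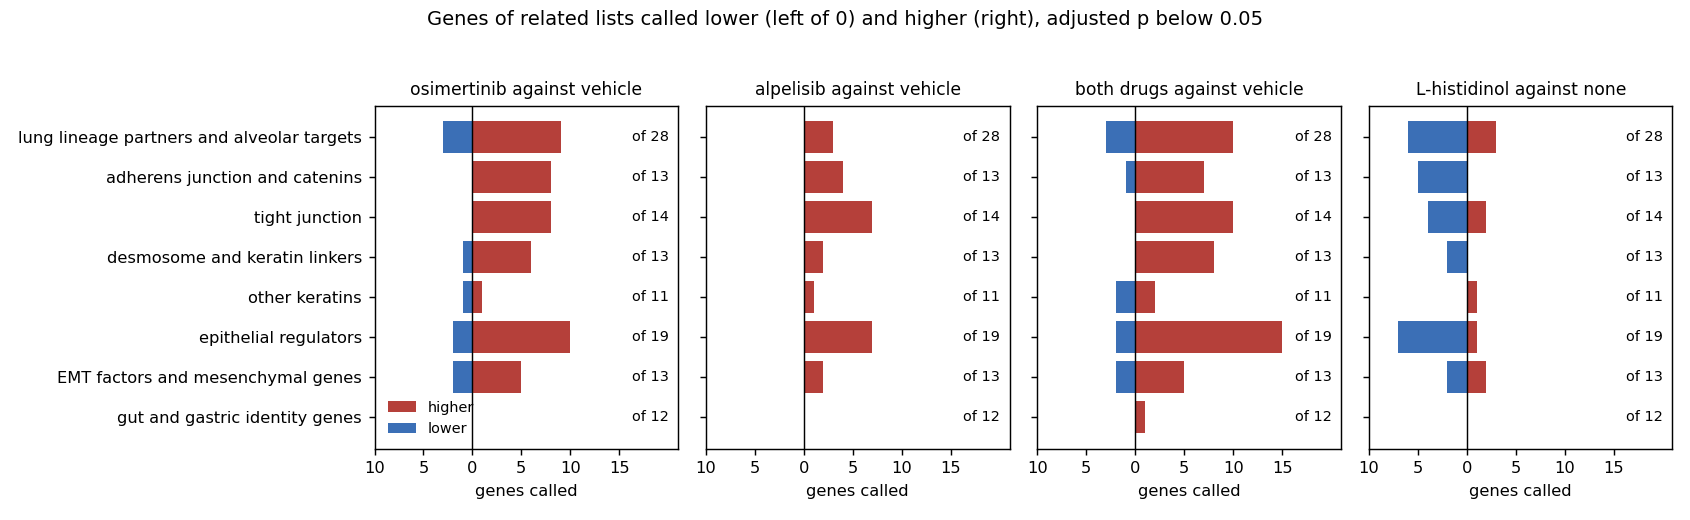
Number of genes of 8 related lists called lower (blue, left of 0) and higher (red, right of 0) in 4 comparisons, with the number measured at the right of each bar. With both drugs 15 of 19 epithelial regulators and 10 of 14 tight junction genes were higher, and gut and gastric genes show 1 call in the 4 panels.

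Genes of the mesenchymal state did not go 1 way. Of 13 genes 5 rose and 2 fell both with osimertinib and with the combination, and 2 rose and 0 fell with alpelisib, beside 30.4%, 40.6% and 11.5% of all genes called. ZEB1, a repressor of CDH1, fell by 0.41 with osimertinib and by 0.45 with both, and the receptor kinase AXL by 0.57 and by 0.43. SNAI1 and SNAI2, also repressors of CDH1, rose by 0.76 ± 0.09 and 0.62 ± 0.07 with osimertinib and by 0.52 ± 0.09 and 0.71 ± 0.07 with both. FN1, fibronectin, rose by 0.71 ± 0.06, 0.56 ± 0.06 and 1.22 ± 0.06. With L-histidinol 2 rose, SNAI2 and AXL, and 2 fell, SPARC and TGFBI. Leaving out single arrays moved each of these counts by at most 1.

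Of the 11 markers of fibroblasts, blood and endothelium, 2 rose with osimertinib, 1 with alpelisib and 3 with both, and 1 fell with L-histidinol. Each share was below that of all genes called, 30.4%, 11.5%, 40.6% and 20.6%. COL1A1 was in each, at 1.34 ± 0.09, 0.38 ± 0.09, 1.53 ± 0.09 and -0.41 ± 0.06. LUM was the other with osimertinib, and LUM and CDH5 with both, and leaving out single arrays moved each count by at most 1. The summed intensity of the 11 markers was 577 in vehicle, 648 with alpelisib, 1214 with osimertinib and 1326 with both, and 489, 600, 891 and 997 with L-histidinol. Leaving out COL1A1 it lay between 204 and 230 without and between 202 and 218 with L-histidinol. The part of other cells in the results above was not tested.

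The genes whose levels ran most like those of each of the 10 were taken from genes with a mean of at least 5 and a range of at least 1, by Pearson's r over the 8 arrays. The points share their arrays and treatments, and with 2445 genes to choose from high values are common, so they are a description. NKX2-1 was most like LPCAT2, a lysophospholipid acyltransferase, ARID5B, a DNA-binding protein, and PLEKHA7, a protein of adherens junctions (r = 0.996, 0.996 and 0.995). CDH1 was most like SSBP2, ID2 and TCEA3 (r = 0.996, 0.996 and 0.991), and CLDN4 like ITGB8-AS1, RERE and EPB41 (r = 0.994, 0.991 and 0.989). FOXA2 was most like SCML1, LIN9 and SHB (r = 0.993, 0.992 and 0.988). For KRT8 they were MGST3, STAP2 and CAPS (r = 0.990, 0.989 and 0.988), for KRT7 PAQR6, FBXL16 and MEGF6 (r = 0.988, 0.985 and 0.977) and for KRT19 VSTM2L, PARVA and P2RY6 (r = 0.972, 0.968 and 0.964). The nearest to EPCAM were ZEB1-AS1, FAM24B and PPP1R15A (r = 0.969, 0.963 and 0.905), to KRT18 CCBE1, CRISPLD2 and MUC12-AS1 (r = 0.925, 0.919 and 0.910) and to FOXA1 SERTAD4, SPINT1 and LMO7 (r = 0.920, 0.913 and 0.910).

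Among the 45 pairs of the 10 genes, NKX2-1 ran closest with KRT8 (r = 0.969), CLDN4 (r = 0.954) and CDH1 (r = 0.914). FOXA2 ran against CDH1 (r = -0.941), KRT8 (r = -0.891) and NKX2-1 (r = -0.876). KRT18 had its highest r with KRT19 (0.647), and EPCAM had none above 0.336, with FOXA2.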

How the data were processed

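The 8 conditions were each measured on 1 Affymetrix U133 Plus 2.0 array. The authors deposited linear signal intensity per probe set, and the submitters' processing notes name RMA and affy, with versions not given in the sources used here. Log2 was taken with no offset and no further scaling. Of 54675 probe sets, 62 were controls, 41091 had 1 gene symbol, 1801 several and 11721 none; Entrez identifiers of 41037 matched RefSeq and 0 symbols changed. Each of 19775 genes was represented by its brightest probe set.

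The fit used limma 3.58.1 (R 4.3.3, statmod 1.5.0) and modelled L-histidinol plus a drug treatment of 4 levels, with a prior that follows intensity (3 residual and 8.08 prior degrees of freedom). L-histidinol by drug interactions used all 2-way terms (1 residual degree of freedom) and that prior. The Benjamini-Hochberg adjustment ran over all genes. The scripts were tested on simulated data. The design foresaw this fit, and the table being linear only added the log2 step.

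The 10 genes and the 10 related lists (140 of 156 genes measured) were chosen with earlier results of these data known. All 10 genes were tested in every comparison and named for each drug treatment against vehicle and for L-histidinol. In comparisons between drug treatments and in interactions only some of them were named. Also named were up to 4 called genes of largest difference from each list, and the 3 most alike genes by r. Alternatives were other probe sets, scalings, an offset of 16, a filter at a mean log2 of 5, other priors and models, and leaving out each array. Promoters, 250 bases before RefSeq starts of GRCh38.p14, were searched on both strands. Tables and figures were made in Python 3.11.15 (pandas 2.3.3, numpy 2.4.6, matplotlib 3.10.9). With 1 array a condition, the number of arrays limits the precision.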

Additional observations from a re-analysis of the deposited data

How the results depend on the processing

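The counts of called genes among the 10 depended on the probe set and, for alpelisib and for both drugs against osimertinib, on single arrays; counts over all genes stand in parentheses. With the mean of a gene's probe sets 3 were called for L-histidinol (2968), 2 for alpelisib (1222) and 1 for both drugs against osimertinib (1646). With the second-brightest probe set 4 were called for osimertinib (4759), 1 for alpelisib (1557), 4 for both drugs against vehicle (6699) and 1 for both against osimertinib (1925). Leaving out probe sets marked for cross-hybridization keeps 5 of the 10 genes, FOXA1, FOXA2, CLDN4, KRT7 and KRT19. NKX2-1, CDH1, EPCAM, KRT8 and KRT18 have only marked probe sets and drop out. Of the genes kept, 2 were called for L-histidinol (2892), 3 for osimertinib (4388) and 3 for alpelisib (1523). For both drugs 4 were called against vehicle (6057), 1 against osimertinib (1830) and 2 against alpelisib (4156). With no trend in the prior 2 were called for alpelisib (779) and 1 for both against osimertinib (1017). With its own prior the fit of all 2-way terms called 1 gene in the interaction of L-histidinol with osimertinib (896) and 1 in that with alpelisib (278). Leaving out each array gave 4 to 6 for L-histidinol, 6 to 7 for osimertinib, 0 to 6 for alpelisib, 7 to 8 for both against vehicle, 0 to 4 against osimertinib, 4 to 6 against alpelisib and 0 to 0 for the drug interaction. No residual degree of freedom is left for the L-histidinol interactions without an array, so none is given.

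Signs of called differences turned only where dimmer probe sets entered. With the second-brightest one, L-histidinol gave 0.018 for CLDN4 and 0.049 for KRT19, osimertinib -0.015 for KRT7 and -0.30 for KRT19, alpelisib -0.43 for KRT19, both drugs -0.12 for FOXA1 and -0.19 for KRT19 against vehicle, and for CLDN4 -0.054 against osimertinib and -0.0013 against alpelisib. Without marked probe sets KRT7 gave -0.015 for osimertinib, and with the mean of probe sets KRT19 gave -0.015 for alpelisib. The causes were not tested. Under centring, quantile scaling, the offset and the filter no call of the 10 genes was lost or reversed, except that the filter at a mean of 5 leaves out FOXA1. Gained were KRT18 for osimertinib with centring (-0.20, adjusted p = 0.040), EPCAM for L-histidinol with the filter (adjusted p = 0.041), and KRT7 with quantile scaling and with the filter for both drugs against osimertinib (adjusted p = 0.037 and 0.034) and against alpelisib (adjusted p = 0.035 and 0.032). No further pairing was possible, because the labels give no replicate numbers to pair by. The additive fit already pairs the arrays of each drug treatment for L-histidinol, and compares the drugs within each level of L-histidinol.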

Other observations

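Other chromosomal neighbours of the 10 genes were described after their values had been seen. METTL27, a methyltransferase-like gene on the other side of CLDN4 from CLDN3, rose by 0.43 ± 0.10 with osimertinib, 0.46 ± 0.10 with alpelisib and 0.69 ± 0.10 with both drugs (limma, adjusted p = 0.0063, 0.013 and 0.00015). ABHD11, the next gene beyond CLDN3, was not called with the drugs but fell by 0.53 with L-histidinol (adjusted p = 0.00012). TANGO6, between CDH1 and HAS3, fell by 0.40 with osimertinib and by 0.87 with both. TNS2, a tensin beyond KRT18, rose by 0.58 ± 0.15 with osimertinib and 0.77 ± 0.15 with both. EIF4B, a translation initiation factor next to KRT18, rose by 0.34 ± 0.04 with L-histidinol, the opposite direction to KRT18 and KRT8, and had 0.01 ± 0.06 with osimertinib. MIPOL1, next to FOXA1, rose by 0.34 ± 0.07 with L-histidinol (adjusted p = 0.0043). Of 38 protein-coding neighbours 31 were measured.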
